A study of Oncorhynchus mykiss with 24 samples.

Results

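Rainbow trout embryos that carried either the OSU/CW or the OSU/OSU genotype at a development rate quantitative trait locus (QTL) were compared at 19 days post fertilization (dpf). The comparison was held by 8 of the 24 arrays of the series, which were all the arrays labelled 19 dpf. Each array carried 1 OSU/CW embryo and 1 OSU/OSU embryo of the same sex, labelled with the dyes Cy3 and Cy5, so 16 of 48 embryos were measured. There were 4 female and 4 male pairs, and in each sex the OSU/CW embryo was in Cy5 on 2 arrays and in Cy3 on the others. All embryos belonged to the fourth generation of a backcross between 2 clonal lines, Clearwater (CW), a fast developing line, and Oregon State University (OSU), a slow developing line. OSU/OSU embryos were homozygous for the OSU allele at the QTL, and OSU/CW embryos carried 1 allele of each line. Genotype had been read from microsatellites linked to the QTL and sex from a Y chromosome marker, so neighbouring genes on the introgressed segment also differed between the groups and cannot be told apart from the QTL itself. The embryos were reared at 11°C and each sample was 1 whole embryo. No feature of the array reads the QTL genotype, so the expression values give no check of that label. The sexes were compared on these arrays only through the difference between genotypes within each sex.

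A QTL for development rate is a stretch of a chromosome at which alleles of fast and slow lines go with earlier or later hatching. At this age salmonid embryos have segmented trunk muscle that flexes the tail, a beating heart, circulating blood and pigmented eyes. Fast muscle fibres are built from thick filaments of myosin chains and thin filaments of actin, tropomyosin and troponin, calcium is pumped back into the sarcoplasmic reticulum by the SERCA pump and buffered by parvalbumin, and creatine kinase restores ATP. These genes come on together as muscle fibres differentiate. An embryo further along in development can therefore differ from a slower one in many tissues at once, and in whole embryos fewer cells of a type and less RNA per cell cannot be told apart.

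The array held 16028 spotted salmonid cDNAs, each an expressed sequence tag (EST), and several ESTs can belong to 1 gene. A feature counted as above background in a channel when its raw signal passed the 90th percentile of the blank, empty and plant control spots. At 19 dpf, 9791 ESTs (61.1%) passed this limit in at least 8 of the 16 channels, and 9529 of them were measured on enough arrays to be tested. Of these, 2359 (24.8%) had no description in the files and 5512 were measured on all 8 arrays. The median signal of a channel lay between 2907 and 16091 units and the ratio of signal to local background between 1.20 and 3.07, lowest on female array 15. The log ratios of male array 19 had the widest spread. A Cy5 to Cy3 difference was called for 2338 features (24.5%), with 2354 (24.7%) at an unadjusted p under 0.05, and dye was a term of the models whose values are given here. Arrays of the same dye orientation correlated at -0.06 to 0.43 in their log ratios (median 0.26 over 12 array pairs), and arrays of opposite orientation at -0.37 to -0.05 (median -0.22 over 16 array pairs).

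No feature was called different between OSU/CW and OSU/OSU embryos over all 8 arrays by limma, with p-values adjusted after Benjamini and Hochberg and a threshold of 0.2 for the false discovery rate (FDR). The smallest adjusted p was 0.778. An array model of the form in the study's methods, fitted here to all 24 arrays on the values normalized here, also called 0 features for this contrast (smallest adjusted p 0.215). At an unadjusted p under 0.05, limma counted 593 features (6.22%), of which 314 (3.3%) were higher and 279 (2.93%) lower in OSU/CW, and the array model counted 562 (5.91%). The median standard error of a genotype difference was 0.16 on the log2 scale, and the 95% interval lay within a 2-fold difference either way for 98.6% of features. In simulated data with the dye layout of these arrays and independent noise, a small set of features was changed alike in all 8 pairs. Of the features changed by 0.5 on the log2 scale 19.5% were called, with 86.5% of those changed by 1 and 100% of those changed by 2. Changes that differ between the sexes and noise shared between features were not simulated. For no feature did the 8 OSU/CW embryos lie wholly above or below the 8 OSU/OSU embryos. The limma p-values rest on the spread of the pair differences between arrays, in which differences between embryos and between hybridizations are mixed.

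Some features were picked out for description because their difference had the same sign on every array. Of 5512 features measured on all 8 arrays, 14 (0.254%) were higher in OSU/CW in every pair and 12 (0.218%) were lower. Of these 26, 22 had an unadjusted p under 0.05, beside 383 of all 5512. A choice by sign on the same arrays favours a small p, so that count is no support for the differences. Whether signs agreed on all 8 arrays more often than random signs would was not tested, so the agreement is no support either. None of the 26 was called, with adjusted p of 0.778 or above in limma for the members named here.

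Splicing factor 3 subunit 1 (CA059073), named for a component of the machinery that removes introns, had 9.86, 9.71, 9.99 and 11.20 normalized log2 intensity in the OSU/CW females of arrays 10, 15, 29 and 40, against 9.17, 9.41, 9.65 and 10.41 in their OSU/OSU partners. In males of arrays 11, 19, 22 and 27 it had 10.87, 11.29, 11.12 and 9.73 in OSU/CW, against 10.58, 10.08, 10.63 and 9.43 in OSU/OSU. The OSU/CW embryo was the higher one in each pair, while the levels of both groups overlapped across arrays. The fitted difference for CA059073 was 0.55 on the log2 scale (SE 0.13, limma adjusted p = 0.778).

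Nuclear genes for mitochondrial proteins were among the features chosen in this way. The mitochondrial acyl carrier protein (CB510233), which carries growing fatty acids, gave differences of 0.01, 0.25, 0.57 and 1.38 in the female pairs and of 0.70, 1.14, 0.29 and 1.09 in the male pairs. ADP/ATP translocase 2 (CB510912), which exchanges ADP for ATP across the inner membrane, gave 0.12, 1.21, 0.17 and 0.27 in females and 0.44, 0.85, 0.83 and 0.70 in males. Female array 10 held the smallest difference in each. Their fitted differences were 0.68 (SE 0.17) for CB510233 and 0.57 (SE 0.14) for CB510912. Brain protein 44 (CB512649), a family name now used for a subunit of the mitochondrial pyruvate carrier, had a difference of 0.75 (SE 0.19).

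The other 8 of the 12 higher features with the smallest p had fitted differences between 0.34 and 0.70. They were elongation factor 1-gamma (CA057088, 0.56), a subunit of the complex that delivers aminoacyl-tRNA to the ribosome, the retinitis pigmentosa GTPase regulator-interacting protein 1 (CA056409, 0.70), a protein of the photoreceptor cilium, and the rRNA-processing protein FCF1 (CB508304, 0.48). The activator of the HSP90 ATPase (CB512690, 0.43), the peroxisome assembly protein 10 (CB500572, 0.41), the Cu-Zn superoxide dismutase (CB494095, 0.40) and the forkhead transcription factor J3 (CB494007, 0.34) stood beside an undescribed EST (CA044717, 0.39).

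On the lower side, the smallest p of this set belonged to an undescribed EST, CA061816, with differences of -0.88, -1.25, -0.52 and -0.12 in females and -0.77, -0.44, -0.52 and -0.46 in males. Its fitted difference was -0.62 (SE 0.14, limma adjusted p = 0.778). Each OSU/CW embryo had less signal for CA061816 than its partner, by the least on female array 40.

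A pair of the lower features carried immunoglobulin descriptions. The Ig kappa-b4 chain C region EST (CA053420), a light chain constant region, had a fitted difference of -0.44 (SE 0.12), and the IgH.A locus EST (CA053733), from the heavy chain locus, had -0.57 (SE 0.17). CA053733 measured 13.25, 12.99, 12.21 and 13.30 normalized log2 intensity in OSU/CW females, against 13.54, 13.08, 13.38 and 13.76 in OSU/OSU females. In males CA053733 measured 13.20, 12.29, 13.16 and 13.16 in OSU/CW, against 13.56, 13.74, 13.73 and 13.35 in OSU/OSU. Most pairs differed by less than 0.6, and female array 29 and male array 19 held the widest gaps, -1.17 and -1.44. The other lower members had differences of -0.40 to -0.09 and included an EST matched to a sea bream clone (CA056626, -0.38), the exosome exonuclease RRP4 (CB517071, -0.34), hemoglobin subunit beta-2 (CB494741, -0.33), the F-actin capping protein alpha-1 (CA055002, -0.29) and undescribed ESTs.

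**Figure D1:**
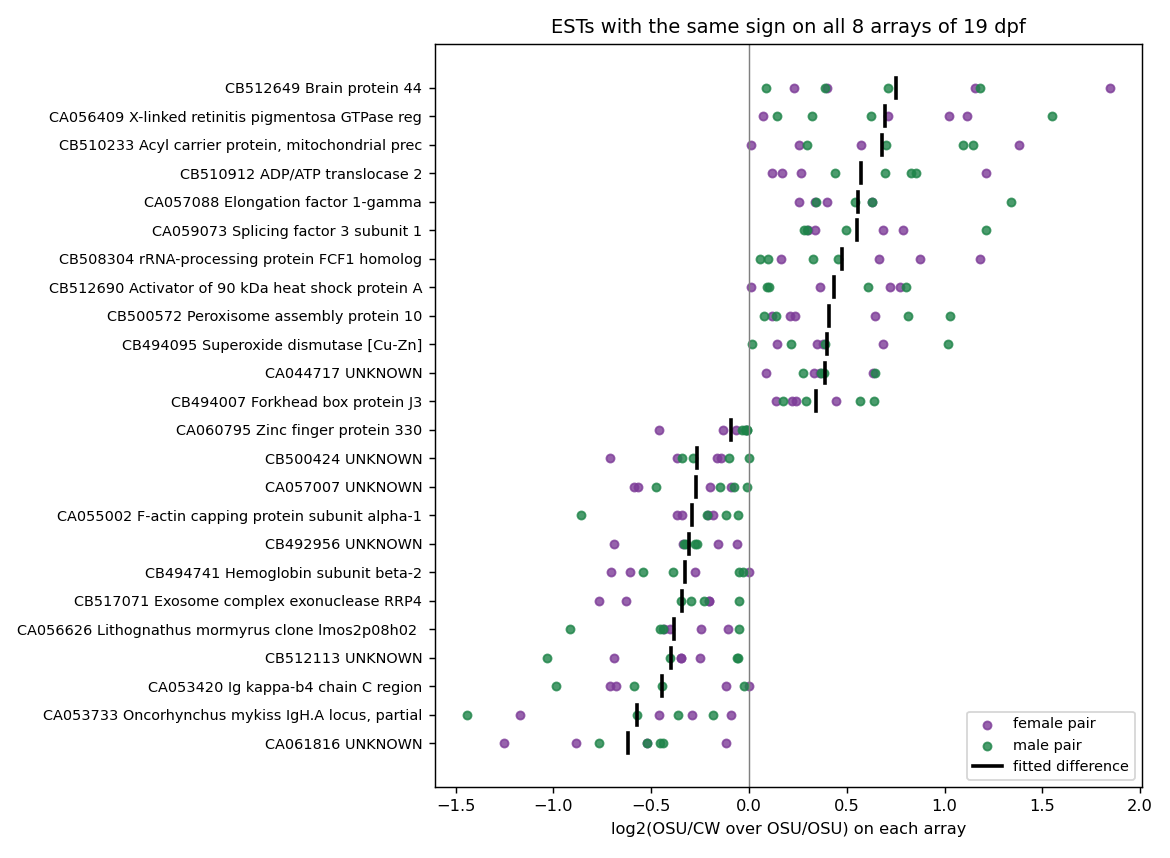
Differences in normalized log2 intensity, OSU/CW minus OSU/OSU, on each of the 8 arrays (points, females and males in separate colours) for the features with the same sign on every array that were chosen for naming, and the fitted difference (bar). The fitted differences run to 0.75 on the higher side and to -0.62 on the lower side, and every point of a feature lies on the same side of 0.

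Split by sex, the counts for the genotype difference were uneven. In males, limma called 4 features (0.042%) at FDR 0.2 and counted 1058 (11.1%) at an unadjusted p under 0.05, 520 (5.46%) of them higher and 538 (5.65%) lower in OSU/CW. In females it called 0, with 315 (3.31%) at an unadjusted p under 0.05, 160 higher and 155 lower. The calls in males were a skeletal myosin light chain and an undescribed EST that rose, and a rhomboid-like protease and an immunoproteasome subunit that fell. The interaction term, the genotype difference in females minus that in males, called 1 feature (0.0105%), the same myosin light chain, and 677 features (7.1%) had an unadjusted p under 0.05. These calls rested on few arrays. Without male array 11 the male count was 608, without male array 19 or male array 27 it was 1, and without female array 15 or female array 40 it was 2. Leaving out any single array except 11 left 0 interaction calls. The sexes shared 1 estimate of spread in this fit, so the counts also depend on how noisy the arrays of each sex were. With the arrays of each sex fitted alone, males had 0 calls and 769 features (8.17%) at an unadjusted p under 0.05. Females then had 0 calls and 382 such features (4.14%).

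Myosin light chain 3, skeletal muscle isoform (CB510287), is an alkali light chain of fast fibres. In males it measured 12.77, 12.77, 12.86 and 11.64 normalized log2 intensity in OSU/CW, against 11.01, 10.66, 11.65 and 10.45 in OSU/OSU. In females it measured 11.02, 10.41, 11.84 and 12.31 in OSU/CW, against 10.65, 11.16, 12.51 and 12.14 in OSU/OSU. In males the OSU/CW embryos were higher by 1.19 to 2.11 in each pair, and only the lowest OSU/CW male (array 27) lay inside the range of the OSU/OSU males. In females the pairs split, with 2 above 0 and 2 below.

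The fitted difference of CB510287 was 1.57 in males (SE 0.17, limma adjusted p = 0.00804) and -0.22 in females (SE 0.17, limma adjusted p = 0.997). The interaction for CB510287, female minus male, was -1.79 (95% interval -2.30 to -1.27, limma adjusted p = 0.0717). Its adjusted p for the interaction ranged up to 0.629 over the alternative settings and the fits with arrays left out, and that of the male difference from 0.00261 to 0.422. The value itself stayed between 0.95 and 1.85 in males. At 15 dpf the genotype difference over both sexes was 0.36 (SE 0.27) for this EST and at 28 dpf it was -0.09 (SE 0.29).

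The undescribed EST CB493139 had male differences of 2.48 and 2.61 on arrays 11 and 19, where OSU/CW was in Cy3, and of 0.33 and 1.11 on arrays 22 and 27, where it was in Cy5. Its female differences were 0.64, -0.21, -0.80 and 1.88. The male pairs were all positive and the female pairs were not, and in both sexes the larger values came with OSU/CW in Cy3. With dye in the model the male difference for CB493139 was 1.63 (SE 0.23, limma adjusted p = 0.0631). It was 0.92 without background subtraction, and the call was lost with plain subtraction, with no filter on dim features, with male arrays alone and without array 19 or 27, where the limma adjusted p reached 0.475.

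**Figure D2:**
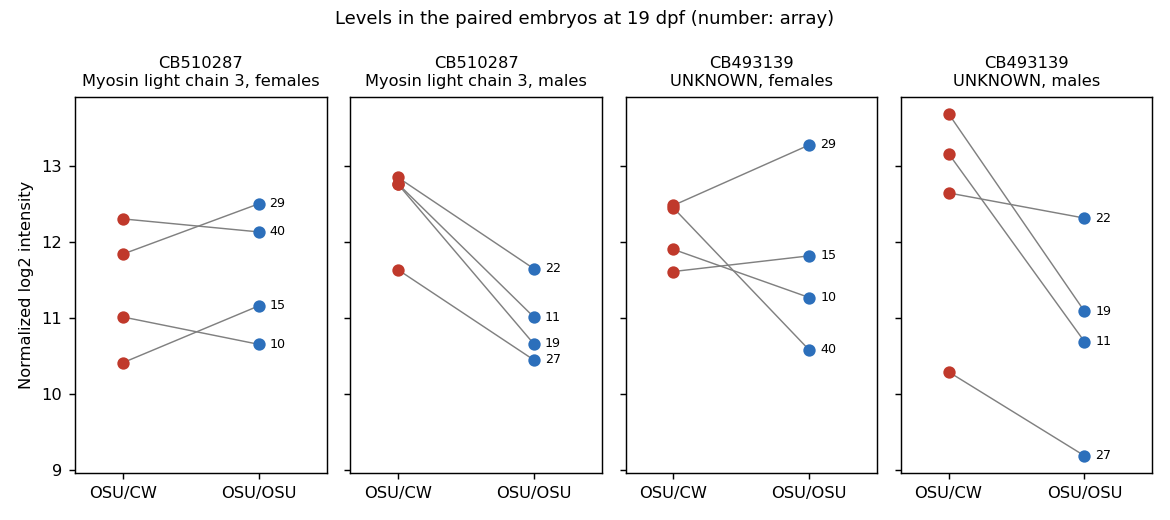
Normalized log2 intensity of the myosin light chain 3 EST (CB510287) and of the undescribed EST CB493139 in each OSU/CW embryo and its OSU/OSU partner on the same array (joined points, numbered by array), females and males apart. In males the OSU/CW point is the higher one in each pair of both ESTs, while the female pairs run both ways.

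Rhomboid-like protease 4 (CA064005), a protease that cuts within membranes, and proteasome subunit beta type 8 (CA048585), the catalytic subunit that replaces a standard one in immunoproteasomes, fell in male OSU/CW embryos. CA064005 measured 8.52, 8.52, 9.85 and 11.15 in OSU/CW males, against 10.92, 10.89, 10.27 and 11.46 in OSU/OSU males. CA048585 measured 8.30, 9.06, 10.37 and 10.36 in OSU/CW males, against 9.94, 10.97, 10.76 and 10.88 in OSU/OSU males. The levels of the groups overlapped across arrays for both ESTs, and the wide gaps were those of arrays 11 and 19, with OSU/CW in Cy3. The male difference was -1.37 for CA064005 (SE 0.22, limma adjusted p = 0.157) and -1.12 for CA048585 (SE 0.19, limma adjusted p = 0.194). Without background subtraction the male difference was -0.30 for CA064005 (limma adjusted p = 0.337) and -0.39 for CA048585 (limma adjusted p = 0.172). Both calls were lost with plain subtraction, with no filter on dim features, with male arrays alone and without array 15, 19, 22, 27 or 40. In females these ESTs had 0.12 (SE 0.22) for CA064005 and -0.04 (SE 0.19) for CA048585.

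Most muscle ESTs had more signal in OSU/CW than in OSU/OSU males, and most had less in females. Over 5 lists of muscle genes, 177 ESTs were tested, and 159 of them had a fitted difference above 0 in males, against 53 in females. The median was 0.36 in males and -0.11 in females, beside medians of -0.01 over all 9529 features in each sex. In males 65 of the 177 were higher at an unadjusted p under 0.05 (background 5.46%) and 0 were lower (background 5.65%). In females 2 were higher (background 1.68%) and 7 lower (background 1.63%). For the interaction 56 were negative (background 3.69%) and 0 positive (background 3.41%), with a median of -0.47. Of the 177, the 1 male call was CB510287. ESTs of 1 gene share their target and those of a family can cross-hybridize, so the ESTs are not independent measures.

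Female and male arrays did not overlap in their muscle medians. The median difference of the 177 muscle ESTs was -0.02, -0.16, -0.23 and -0.07 on female arrays 10, 15, 29 and 40, and 0.35, 0.49, 0.30 and 0.41 on male arrays 11, 19, 22 and 27. All 4 male medians lay above all 4 female medians, and both dye orientations occurred on each side. Medians over all tested features lay between -0.04 and 0.02 on these arrays, and female array 10, with a muscle median of -0.02 against -0.03 over all features, did not lean lower. Of the muscle ESTs measured on all 4 male arrays, 49 of 128 were higher in OSU/CW on every one of them (38.3%, background 6.61%) and 0 were lower on every one (background 6.22%). On the 4 female arrays 1 of 131 was higher throughout (background 3.56%) and 17 were lower throughout (background 4.64%).

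Parvalbumins, the calcium buffers of fast fibres, had the highest medians. All 20 tested parvalbumin ESTs, of 25 on the array, had a difference above 0 over both sexes, with a median of 0.47. Of the 20, 10 had an unadjusted p under 0.05 (background 6.22%). Parvalbumin beta 2 (CB509752) gave pair differences of 1.26, -0.70, 0.63 and 1.15 in females and of 1.42, 1.27, 0.00 and 0.57 in males. Parvalbumin beta 1 (CB510281) gave 0.26, -0.75, -0.52 and 1.86 in females and 1.73, 2.15, 0.25 and 1.54 in males. The male pairs lay above 0 for both ESTs, apart from CB509752 on array 22, where the partners had the same level, and female array 15 was below 0 for both. The fitted difference over both sexes was 0.70 (SE 0.15) for CB509752 and 0.82 (SE 0.26) for CB510281. The list's array medians were 0.26, 0.11, -0.36 and 0.69 in females and 1.03, 0.98, 0.25 and 0.69 in males, so the sexes overlapped here. Within each sex, the larger values of both ESTs and of these array medians came with OSU/CW in Cy3.

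Thick filament ESTs followed the split more closely. Of 56 myosin chain ESTs 50 were tested, and their median was 0.33 in males and -0.13 in females. At an unadjusted p under 0.05, 15 were higher in males (background 5.46%) and 14 were negative for the interaction (background 3.69%). All 12 ESTs of fast skeletal myosin heavy chain, the motor of the thick filament, lay above 0 in males (0.12 to 0.95), and 1 did so in females. All 5 ESTs of skeletal myosin light chain 1 lay above 0 in males, with a median of 0.73, against -0.07 in females. The list also held 7 ESTs of Myosin-9, a non-muscle myosin, with a median of 0.16 in males and -0.11 in females.

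Thin filament ESTs numbered 47 tested of 63, with a median of 0.33 in males and -0.11 in females. The 13 alpha-actin ESTs were above 0 in 12 cases in males and in 0 cases in females, with medians of 0.29 in males and -0.14 in females. Tropomyosin-1, which lies along the actin filament, had 11 ESTs with medians of 0.37 in males and -0.02 in females. The 16 troponin ESTs, the calcium switch of the thin filament, had medians of 0.36 in males and -0.09 in females. Among them fast troponin I (CB496805) had 1.07, 0.25, -0.88 and 1.36 in the female pairs and 1.69, 1.27, -0.86 and 0.44 in the male pairs. Its single negative pair in each sex was a pair with OSU/CW in Cy5, and its fitted difference over both sexes was 0.54 (SE 0.17).

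Calcium handling and scaffold ESTs differed between the sexes in the same direction. The median of the 35 tested, of 42 on the array, was 0.39 in males and -0.17 in females. For the interaction 16 were negative at an unadjusted p under 0.05 (background 3.69%). The pump SERCA1 had 11 ESTs, all above 0 in males (0.27 to 0.92) and 1 above 0 in females, with medians of 0.71 in males and -0.39 in females. The 13 SERCA ESTs joined this list after their values were seen, and without them the list had medians of 0.28 in males and -0.10 in females over 22 ESTs, and all muscle lists had 0.34 in males and -0.10 in females over 164. In the full list of 35 ESTs, 9 were above 0 in females and 33 in males. Among its members, Myozenin-1 (CB510358), a protein of the Z disc, was positive in 7 of 8 pairs. It had -0.35, 0.76, 0.44 and 0.67 in females and 0.69, 1.29, 0.73 and 1.03 in males, with a fitted difference of 0.66 (SE 0.17).

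Creatine kinases numbered 25 tested ESTs of 27, with medians of 0.27 in males and -0.13 in females. The 8 ESTs of the M-type, the cytosolic muscle enzyme, were all above 0 in males (0.23 to 0.67) and 1 was in females. The 6 ESTs of the sarcomeric mitochondrial enzyme had 4 members above 0 in males and 2 in females, and a male median of 0.08. The list also held ESTs of the B-type and of an enzyme the files name the testis isozyme.

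**Figure D3:**
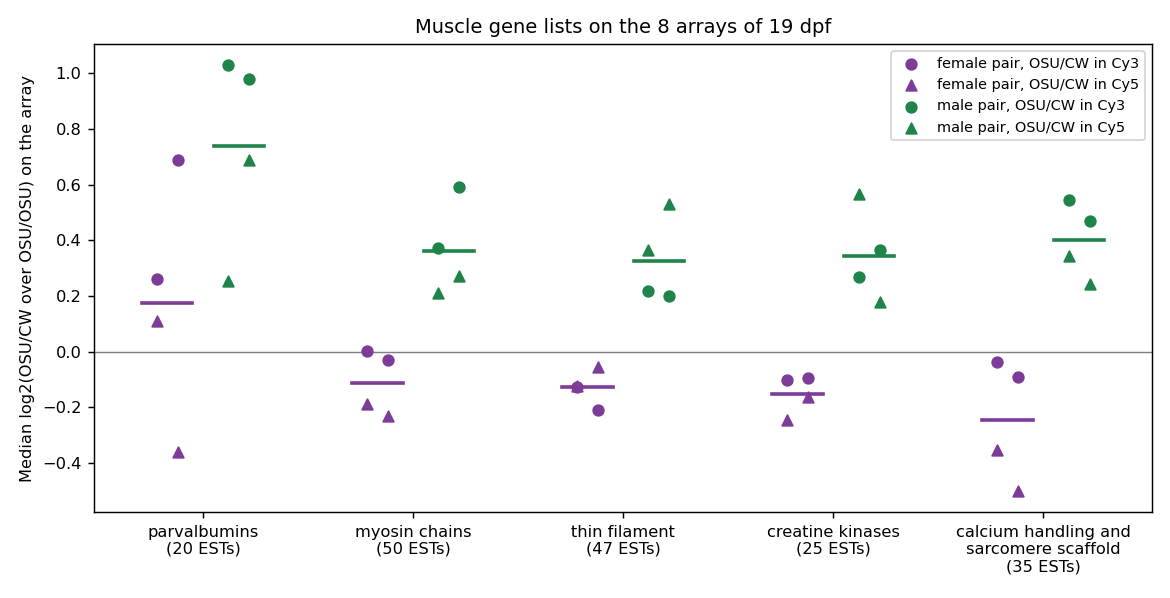
Median log2 ratio of OSU/CW over OSU/OSU on each of the 8 arrays of 19 dpf for 5 muscle gene lists (points, with sex by colour and dye orientation by shape, and the mean of the 4 arrays of a sex as a bar). Male arrays lie above 0 in all 5 lists and above every female array in 4 of them, the exception being parvalbumins.

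Bright features gave more calls than the full set. Among the 2484 features above the control limit in all 16 channels, limma called 80 in males (3.22%), of which 65 were higher and 15 lower in OSU/CW. Of the 80 muscle ESTs in that set, 23 were called, all of them higher. The interaction called 22 features (0.886%) in that set, all negative, and 10 of them were muscle ESTs. Among the 2404 other bright features the median was 0.01 in males and -0.03 in females. Without background subtraction, 199 features were called in males (2.09%), 164 higher and 35 lower, with 41 of the 177 muscle ESTs called, all higher. This setting called 8 for the interaction (0.084%), all negative, of which 6 were muscle ESTs. The male counts of both settings and the interaction count of the bright set were not planned beforehand. No fit with an array left out was run in either setting. Other settings moved the male calls both ways, from 1 with plain subtraction to 431 with plain subtraction and centred channels in place of loess. Print-tip loess gave 0 interaction calls.

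Some members of the bright interaction set, named after their values were seen, show the pattern. SERCA1 (CB494468) had -0.46, -0.32, -0.73 and -0.34 in the female pairs and 0.55, 0.55 and 0.99 in the male pairs of arrays 11, 19 and 22, with no value on array 27. Cytochrome c oxidase subunit 2 (CN442513), a mitochondrially encoded subunit of the respiratory chain, had -0.53, -0.77, -0.31 and -0.28 in females and 0.48, 0.65, 0.92 and 0.53 in males. Signs were the same within a sex and opposite between the sexes for both ESTs. In the full set the interaction was -1.18 (SE 0.28, limma adjusted p = 0.576) for CB494468 and -1.11 (SE 0.25, limma adjusted p = 0.549) for CN442513, and neither was called. Another EST with the same description (CB490438) had -0.64 (SE 0.18) over both sexes and -0.88 in males, against the direction of CN442513. Alpha-actin ESTs with the same pattern included CB497529, at -0.43 in females and 0.71 in males, and CK991242, at -0.33 in females and 0.84 in males.

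Most lists outside muscle also had male medians above their female medians, with narrower gaps than the muscle lists, and 4 of them are described here. Tubulins, the subunits of microtubules, had 31 of 32 ESTs above 0 in males and 17 in females, with medians of 0.22 in males and 0.01 in females. Chaperones, which fold proteins, had medians of 0.18 in males and -0.01 in females over 106 ESTs. At an unadjusted p under 0.05, 14 were higher (background 5.46%) and 1 was lower (background 5.65%) in males. Splicing factors and hnRNPs had 0.16 in males and 0.00 in females over 127 ESTs, with 19 higher and 1 lower in males beside the same backgrounds. Glycolytic enzymes, many of which are abundant in muscle, had 0.13 in males and -0.07 in females over 77 ESTs. Within that list, the 26 ESTs of glyceraldehyde-3-phosphate dehydrogenase had a male median of 0.34 and a female median of -0.15. In males 11 of them were higher (background 5.46%) and 0 lower (background 5.65%) at an unadjusted p under 0.05. No feature of these 4 lists was called among all 9529. Among the bright features 10 of their ESTs were called in males (background 3.22%), and how many of their ESTs were bright was not counted. Without background subtraction 22 of their 342 ESTs were called in males (background 2.09%). All of these were higher in OSU/CW, as were most male calls in both settings.

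Lens crystallins and hemoglobins leaned the same way in both sexes. Lens crystallins, the refractive proteins of the eye lens, had medians of 0.20 in males and 0.09 in females over 41 ESTs, and 33 lay above 0 over both sexes. Their array medians were 0.04, -0.23, 0.01 and 0.64 in females and 0.61, 0.01, 0.06 and 0.07 in males, so female array 40 and male array 11 held most of the shift. Hemoglobins, which mark red cells, had medians of 0.11 in males and 0.08 in females, with 43 of 52 ESTs above 0 over both sexes. Array medians of hemoglobins lay between -0.12 and 0.39 and 4 of 8 were below 0. The large and small ribosomal subunit proteins had medians of 0.08 over 218 ESTs and 0.06 over 176 ESTs, and male array 19 held the highest array median of each, 0.42.

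**Figure D4:**
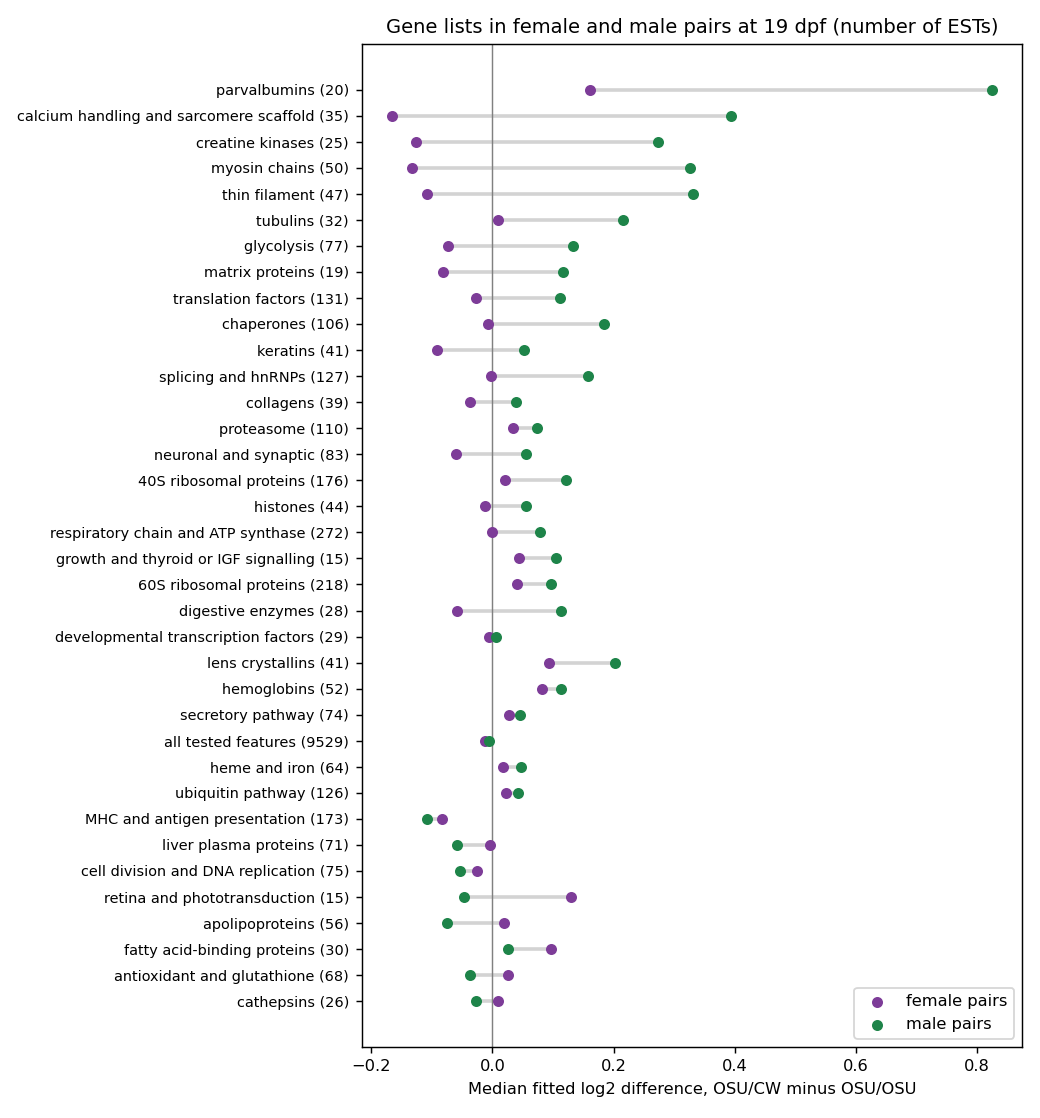
Median fitted log2 difference, OSU/CW minus OSU/OSU, of each gene list in female and male pairs at 19 dpf, with the number of ESTs in brackets. The 5 muscle lists have the widest gaps between sexes, with parvalbumins at 0.83 in males and 0.16 in females, while all tested features together lie at -0.01 in both sexes.

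Genes of the major histocompatibility complex (MHC) and of antigen presentation leaned lower in OSU/CW embryos of both sexes. MHC molecules present peptides to T cells, and class I molecules need beta-2-microglobulin. Of 173 tested ESTs 40 were above 0 over both sexes, beside 47.3% of all features, and the median was -0.09. The array medians were 0.09, -0.10, -0.26 and -0.14 in females and -0.13, -0.15, -0.02 and -0.07 in males, so 7 of 8 arrays were below 0. At an unadjusted p under 0.05 there were 1 higher (background 3.3%) and 7 lower (background 2.93%), and none was called. A block of 57 ESTs in this list was described only by a genomic region that holds SYPG1 and other genes, and their median was also -0.09.

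The members with the smallest p in this list were an EST described by an MHC class I gene, Onmy-LDA (CA060262), and an MHC class II beta chain EST (CN442532). CA060262 had -1.27, 0.34, 0.27 and -0.66 in females and -1.43, -1.85 and -0.13 in the male pairs of arrays 11, 19 and 27. CN442532 had -0.97, 0.97, 0.68 and -1.38 in females and -1.16, -1.59, -0.76 and -0.22 in males. For both ESTs the female pairs with OSU/CW in Cy5 were positive and those with OSU/CW in Cy3 were negative, while each measured male pair was negative. Their fitted differences were -0.57 (SE 0.16) for CA060262 and -0.55 (SE 0.18) for CN442532. The 17 ESTs of beta-2-microglobulin had medians of -0.18 in males and 0.11 in females.

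The lists of collagens, keratins and growth signalling had no member with an unadjusted p under 0.05 over both sexes, beside 6.22% of all features. Collagens had a median of -0.01 over 39 ESTs, keratins -0.02 over 41 and growth, thyroid and IGF signalling 0.06 over 15. Cell division and DNA replication genes had a median of -0.06 over 75 ESTs. At an unadjusted p under 0.05, 4 were higher (background 3.3%) and 3 were lower (background 2.93%). Both proliferating cell nuclear antigen ESTs named, which mark the sliding clamp of DNA replication, ran against that median, at 0.56 (CA063395, SE 0.17) and 0.59 (CA052616, SE 0.23).

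The rule of the study's methods, applied to the array model as fitted here, gave a larger count in the sexes taken apart. There a feature first passed an overall test of the array model at FDR 0.05, as 1417 of 9516 did, and then 1 of 66 contrasts between treatments at FDR 0.2, which here let pass an unadjusted p of up to 0.106. By this rule 508 features (5.34%) were counted in males, 238 higher and 270 lower in OSU/CW, and 126 (1.32%) in females, 64 higher and 62 lower. These were 35.85% of the 1417 in males and 8.89% in females. A limit of 0.106 lets pass about as large a share of features with no difference as was counted in females. The female count is therefore no support for genotype differences. Of the features counted in both sexes, 9 had the same direction and 31 had opposite directions.

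At 15 and 28 dpf the genotypes were compared on 8 arrays each, in a fit of all 24 arrays that gave 579 features (6.08%) at an unadjusted p under 0.05 and 0 calls for 19 dpf. limma called 0 features at either age, with 536 (5.63%) at an unadjusted p under 0.05 at 15 dpf and 437 (4.59%) at 28 dpf. The difference of the genotype effect between ages was tested directly and called 0 features for 19 against 15 dpf and 0 for 19 against 28 dpf. At an unadjusted p under 0.05 there were 623 features (6.55%) for 19 against 15 dpf and 447 (4.7%) for 19 against 28 dpf.

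The muscle split by sex was widest at 19 dpf. At 15 dpf the array medians of the 177 muscle ESTs were -0.07, -0.15, -0.31 and 0.00 in females and -0.04, 0.03, 0.18 and 0.21 in males. At 28 dpf they were 0.20, -0.05, -0.21 and -0.20 in females and -0.05, -0.09, -0.05 and -0.12 in males. The sexes overlapped at both ages, and no 28 dpf male array was above 0. At 15 dpf the positive male arrays all had OSU/CW in Cy3 and the negative one had it in Cy5, so dye and level moved together there. OSU/CW was in Cy5 on female arrays 13, 14 and 17, which were all below 0, and in Cy3 on female array 35. Dye was thus not balanced between the sexes at 15 dpf, and these medians cannot fully tell sex from dye. Whether this split differed between ages was not tested. Parvalbumins had medians over both sexes of 0.00 at 15 dpf, 0.47 at 19 dpf and 0.04 at 28 dpf, and hemoglobins of 0.05 at 15 dpf, 0.08 at 19 dpf and 0.30 at 28 dpf.

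**Figure D5:**
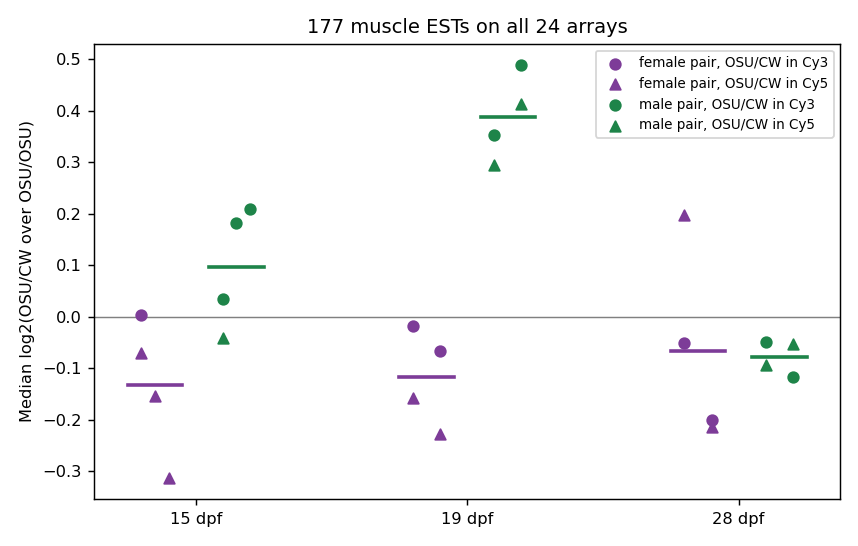
Median log2 ratio of OSU/CW over OSU/OSU of 177 muscle ESTs on each of the 24 arrays, by age in dpf and sex (colour) and by dye orientation (shape), with the mean of 4 arrays as a bar. The 19 dpf male arrays lie at 0.30 to 0.49, above every other array, and those of 28 dpf lie below 0.

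Among single features, proteasome subunit beta type 4 (CB512698), a structural part of the proteasome core, had a fitted difference of -0.53 at 15 dpf and 0.33 at 19 dpf (difference 0.85, SE 0.22, limma adjusted p = 0.700). The undescribed EST CA050352 ran the other way, at 0.69 at 15 dpf and -0.65 at 19 dpf (difference -1.34, SE 0.30, limma adjusted p = 0.700). Splicing factor 3 subunit 1 (CA059073) had 0.55 at 19 dpf and -0.43 at 28 dpf (difference 0.98, SE 0.26, limma adjusted p = 0.992). None of these passed the threshold. The undescribed EST CA063689 had the smallest p over both sexes at 19 dpf, with -0.15, -1.28 and -0.81 on female arrays 15, 29 and 40 and -1.97, -1.99 and -0.20 on male arrays 11, 19 and 22. It was lower in OSU/CW on all 6 arrays that measured it, with a fitted difference of -1.07 (SE 0.22), and its difference at the other ages was 0.16 at 15 dpf and 0.14 at 28 dpf.

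Some of the genes that the study followed by quantitative PCR for sex differences were also read here for genotype. Its other target genes were not taken up by name, though the gene lists can hold ESTs of some, such as creatine kinase B-type. Zonadhesin-like ESTs, named after a sperm membrane protein, numbered 51, of which 15 were above 0, with a range of -0.49 to 0.70 and a median of -0.07. At an unadjusted p under 0.05, 1 was higher (background 3.3%) and 4 were lower (background 2.93%). The zonadhesin-like ESTs were matched on their description alone, so how many of them read zonadhesin RNA is not known. Both coatomer subunit alpha ESTs, of the coat of Golgi vesicles, lay at 0.02 and 0.08. An EST of 15-hydroxyprostaglandin dehydrogenase (CB496601), which inactivates prostaglandins, had 0.40 (SE 0.20, limma adjusted p = 0.805). Among its largest sex differences the study lists a different EST of this name. It calls its PCR target only prostaglandin, so the match of CB496601 to that target rests on the description. Beta-actin, the reference gene there, had 12 ESTs from -0.22 to 0.25 with a median of -0.07, and none reached an unadjusted p of 0.05.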

How the data were processed

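RNA of single embryos was hybridized in pairs to a salmonid cDNA array. The deposited scanner files give spot and local background intensity per dye, before normalization. The authors' table of 10153 normalized rows, a score with column medians of -1.10 to 1.07 that is a quotient of centred logs, was not used. Intensities were background-corrected (normexp, offset 50), loess-normalized within arrays with control spots at weight 0, and scaled between arrays (Aquantile) in limma 3.58.1 under R 4.3.3. Spots marked poor in the files were left out and spots of 1 EST were averaged. The tested features passed the 90th percentile of 1003 negative controls in at least 8 of 16 channels, with values on at least 6 of 8 arrays and 2 of each sex and dye orientation. log2 OSU/CW minus log2 OSU/OSU was fitted with dye (and sex where stated) in limma, and the 15 and 28 dpf contrasts in a fit of all 24 arrays. The array model followed the form in the study's methods, with 12 treatments, dye and a random array. It was fitted in limma with 1 array correlation (0.54) shared by all features. Its counts need not be those of the study's own fit. Calls were made at FDR 0.2, the level of the study's methods, and p-values are 2-sided. Code was tested on simulated data.

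Members and gene lists were chosen with earlier results of these data known, and 2 muscle lists were corrected after values were seen: tropomyosins were removed from the myosin chains and SERCA ESTs were added to calcium handling, whose values without them are given. Lists were matched on the descriptions in the files. Named features were the 12 of smallest p in each direction with 1 sign on all 8 arrays, the 2 of smallest p in each list of at least 5 members, the 3 of smallest p in each direction for the interaction and for each age contrast, and the study's candidate genes, of which the text gives a selection. The 4 calls in males and members of the bright set were added after values were seen. None of the 16028 EST identifiers matched the RefSeq gene table used here, so no sequence or position is given. No depth exists for arrays, and the number of arrays limits precision. Alternatives were other background corrections, normalizations, filters, models and left-out arrays.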

Additional observations from a re-analysis of the deposited data

Results flagged for a closer look

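In 6 of the 76 features examined 1 array stood far from the others. The nominal rate of the rule is about 1 in 20 for unselected normal values. It need not hold here, since the features were chosen on these arrays and the pair differences still carried the dye effect. Elongation factor 1-gamma (CA057088) had a difference of 1.34 on male array 27, and 0.26 to 0.63 on the other arrays. The EST CA056626, matched to a sea bream clone, had -0.92 on male array 11, and -0.46 to -0.05 elsewhere. The undescribed CB492956 had -0.69 on female array 15, and -0.34 to -0.06 elsewhere. F-actin capping protein alpha-1 (CA055002) had -0.86 on male array 22, and -0.37 to -0.06 elsewhere. Ferritin middle subunit (CK991031), an iron store, had 1.30 on male array 19, and -0.03 to 0.58 elsewhere. The 60S ribosomal protein L36a (CB499948) had 1.502 on male array 19, and -0.13 to 0.52 elsewhere.

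The genotype difference of myosin light chain 3 (CB510287) was -0.22 in females and 1.57 in males. The interaction of -1.79 (female minus male, limma adjusted p = 0.0717) was called in the main fit. It was not called in the mixed model, with print-tip loess or with no filter on dim features (limma adjusted p = 0.300, 0.498 and 0.520). Another EST of the same description (CB510714) had -0.20 in females and 0.76 in males in the fit of the bright features.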

How the results depend on the processing

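The count of 0 calls over both sexes and for both age contrasts held under every setting run. Male calls (4) were 199 without background subtraction, 1 with plain subtraction and 327 with median centring. They were 431 with plain subtraction and centred channels in place of loess, which is not the authors' deposited score. They were 80 for features above the controls in all 16 channels and 1 with no filter on dim features. They were 0 with male arrays fitted alone and 0 without arrays 15 and 19 together. The 2-step rule of the methods gave 508 in males and 126 in females. Interaction calls (1) were 8 without background subtraction, 0 with print-tip loess, 22 for features above the controls in all 16 channels, and 0 with no filter on dim features, with the mixed model and without arrays 15 and 19 together. The all-channel filter tests fewer features and no filter tests more, so shares of those tested are given in brackets. At an unadjusted p under 0.05, the main fit had 6.22% over both sexes, 3.31% in females, 11.1% in males and 7.1% for the interaction. It had 6.55% for 19 against 15 dpf and 4.7% for 19 against 28 dpf. The all-channel filter left 164 over both sexes (6.6%), 122 in females (4.91%) and 298 in males (12%). It left 227 for the interaction (9.14%), 171 for 19 against 15 dpf (6.91%) and 92 for 19 against 28 dpf (3.72%). No filter gave 902 over both sexes (5.72%), 605 in females (3.84%) and 756 for 19 against 28 dpf (4.8%). Centred channels in place of loess gave 1604 in males (69.1% higher) and 1060 for the interaction (26.4% positive). No dye term gave 302 over both sexes, and no background subtraction gave 384 for 19 against 15 dpf. The cause of these shifts was not tested.

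Leaving out 1 array at a time gave 1 to 608 male calls, 0 to 1 interaction calls and 0 to 0 for the other contrasts. At an unadjusted p under 0.05 it gave 407 to 698 over both sexes, 255 to 393 in females, 687 to 1519 in males, 534 to 1182 for the interaction, 424 to 753 for 19 against 15 dpf and 369 to 522 for 19 against 28 dpf, and male calls are named by array in the account of the sexes.

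The sign over both sexes turned only for features near 0. CB511864, a monocyte to macrophage differentiation protein EST at -0.08, had 0.0774 without background subtraction, 0.0338 with no dye term, 0.0731 with array weights, 0.15 without arrays 15 and 19 together and -0.28 to 0.24 with 1 array left out at a time. SERCA1 (CB494468), at 0.03, had -0.0325 with array weights and -0.23 to 0.20 with 1 array left out. Creatine kinase M-type (CB494390), at 0.09, had -0.11 to 0.22, and CN442513, at 0.08, had -0.0528 to 0.23, with 1 array left out. Male medians of the 5 muscle lists were above 0 under each of 18 alternatives, at 0.41 to 1.07 for parvalbumins, 0.24 to 0.59 for myosin chains, 0.25 to 0.64 for the thin filament, 0.18 to 0.56 for creatine kinases and 0.26 to 0.57 for calcium handling and scaffold, and female medians were below 0 except for parvalbumins, which ran from -0.26 to 0.25. Signal was only 1.20 times local background in 1 channel of array 15, which limits what can be read of low features there.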
